A study of Mus musculus with 6 samples.

Results

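Repair of DNA double-strand breaks and the checkpoint that answers them were followed through 37 genes: 12 of end joining, 16 of homologous recombination and 9 of break signalling. The genes were chosen by function, with earlier results of these data known. A member was measured where a probe set of the array carried its symbol alone, and of several such probe sets the one with the highest mean over all arrays was taken. This held for 34 of the 37, out of 22180 genes in all, namely all 12 of end joining, 13 of recombination and all 9 of signalling. The recombination genes Xrcc2, Rbbp8 and Fanca were not analysed here.

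The cells were MC3T3-E1, a mouse line of pre-osteoblasts from the calvaria that can be driven to form mineralising osteoblasts. All cells were grown to confluency and then induced with ascorbic acid at 50 µg/ml together with β-glycerophosphate at 10 mM, and whole-cell total RNA was taken on day 14. In 3 samples the medium also held NU7441 at 1 µM, which blocks the catalytic subunit of the DNA-dependent protein kinase, and in the 3 controls it held the solvent DMSO. The model is 1 cell line, and no agent that breaks DNA is named. No label states that the samples of a group came from different cultures, and the p-values may therefore rest on technical spread alone.

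Of the osteoblast markers, 9 of 10 were measured, and all 9 lay above the arrays' medians of 6.38 to 6.42 on the log2 scale. Of the other cell types, 0 of 5 endothelial, 2 of 6 macrophage, 2 of 6 adipocyte, 2 of 6 chondrocyte and 3 of 6 skeletal muscle markers did so, as did 3 of 5 osteocyte markers. The osteoblast markers were themselves higher with NU7441 in 9 of 9, with a median log2 difference of 0.52, where 11371 of 22180 genes were higher. In limma 0 of them had an adjusted p under 0.05 without pairs or with pairs, as did 0 of all genes. Once a robust prior and an intensity trend were added to the pairs, 4 did, where 0.451% of all genes did. Any pair of arrays correlated at between 0.989 and 0.993 over all probe sets. A value from whole cultures cannot tell fewer cells of a kind from less RNA per cell, which holds for every result given here.

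A double-strand break can be closed along competing routes. In non-homologous end joining the Ku proteins hold the ends, the DNA-dependent protein kinase, which NU7441 blocks, is recruited to them, and the ligase of the pathway joins them at any time of the cell cycle. In homologous recombination the ends are first trimmed back to single strands and a sister chromatid serves as the template, so that the route, and the transcripts of many of its proteins, belong to the S and G2 phases. Sensor proteins and the kinases ATM and ATR report the break and halt the cycle. The comparison of NU7441 with DMSO asks here whether 14 days of inhibitor came with a different level of the transcripts of this machinery.

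No member was called between NU7441 and DMSO. In limma 0 of the 34 passed an adjusted p of 0.05, as did 0 of all genes, the percentage called being 0. At an unadjusted p under 0.05 there were again 0 members, where 6.79% of all genes were, 3.49% higher and 3.3% lower with NU7441. The groups did not stand apart in any member, where they did in 12.8% of all genes. Within same-numbered arrays, 7 members differed in the same direction in all 3 pairs, or 20.6%, against 32.7% of all genes, and 5 of the 34 were higher with NU7441 in all 3, where 16% of all genes were. The log2 differences, NU7441 minus DMSO, ran from -0.17 for Chek2 to 0.25 for Brca1. The 95% interval of the difference lay within 1 log2 unit, a 2-fold change of signal, on either side for all 34 members, and within 0.5 for 30 of them, 88.2% against 87% of all genes. The 4 with a wider interval were Brca1, Exo1, Fancd2 and Rad54l, all of recombination.

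**Figure D1:**
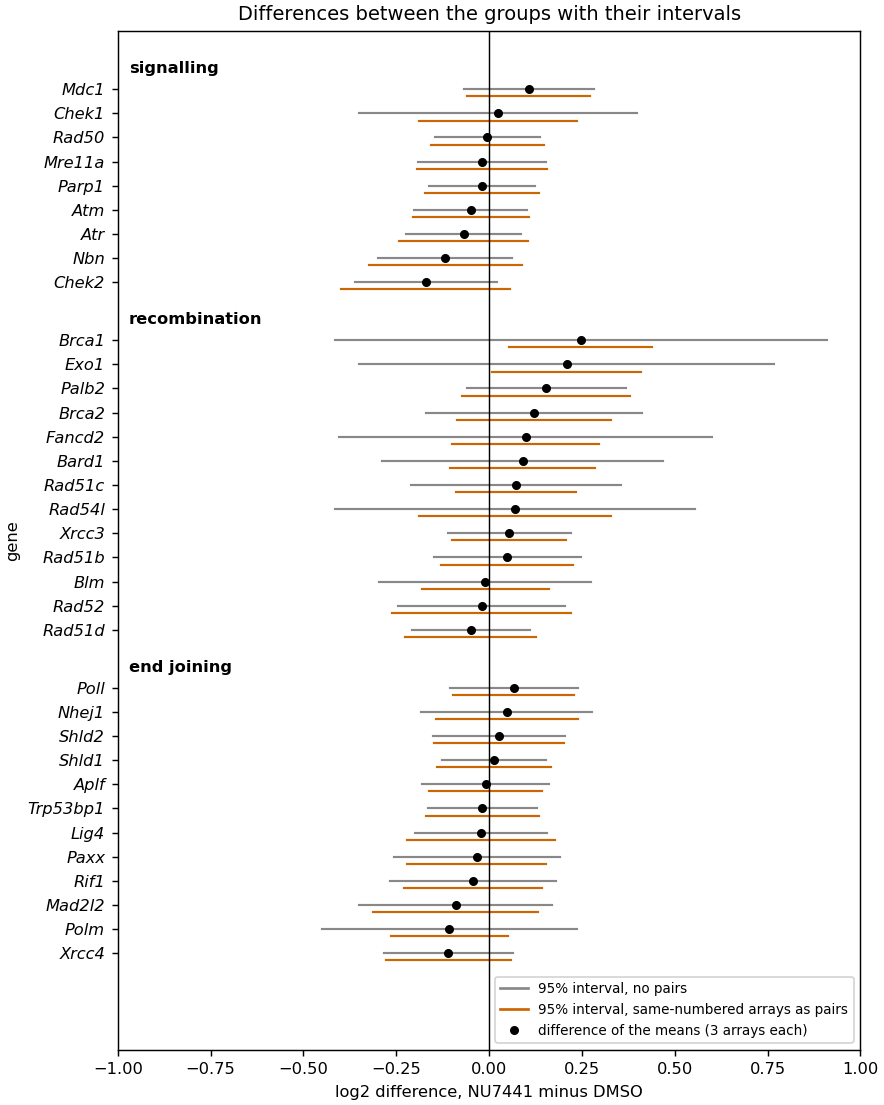
Log2 difference of each of the 34 measured members, NU7441 minus DMSO (points, 3 arrays a group), on the x axis, with the genes on the y axis by role. Grey lines are 95% intervals of the fit without pairs and orange lines those with same-numbered arrays as pairs; every grey interval crosses 0, and those of Brca1 and Exo1 are the longest.

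End joining showed no common direction. Of the 12 members 4 were higher and 8 lower with NU7441, with a median log2 difference of -0.02, where the median of all genes was 0.00. Leaving out 1 array moved this median between -0.03 and 0.01, the latter without DMSO 2. Their values spanned a median of 0.24 over the 6 arrays, against 0.32 for all genes.

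The joining step itself rests on DNA ligase IV and its scaffolds. Lig4, the ligase, differed by -0.02 (SE 0.08). Xrcc4, which holds the ligase at the ends, was at 6.84, 6.97 and 6.92 in DMSO 1 to 3 and at 6.79, 6.89 and 6.73 in NU7441 1 to 3 on the log2 scale. It was lower with NU7441 in each of the 3 same-numbered pairs, with differences of -0.05, -0.08 and -0.20, yet the groups overlapped, since NU7441 2 lay above DMSO 1. The difference of the means was -0.11 (SE 0.07), with a 95% interval from -0.28 to 0.06 and an adjusted p of 0.824 in limma. Nhej1, also known as XLF, which forms filaments with XRCC4, differed by 0.05 (SE 0.10) and Paxx, a related protein that binds Ku, by -0.03 (SE 0.09). Paxx was at 7.64, 7.95 and 7.77 in DMSO and at 7.73, 7.83 and 7.69 in NU7441, so that the highest and the lowest values were both controls. Aplf, a scaffold that binds Ku and poly(ADP-ribose), differed by -0.01 (SE 0.07).

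Short gaps at the ends are filled by the polymerases mu and lambda. Polm had the widest span of the role, with 8.64, 8.53 and 8.26 in DMSO and 8.58, 8.42 and 8.11 in NU7441. The values fell into the same order of numbers in both groups, number 3 being the lowest, and each NU7441 value was below its same-numbered control, with differences from -0.06 to -0.15. The difference was -0.11 (SE 0.15, adjusted p of 0.910 in limma), and its sign turned to 0.02 without NU7441 3. Poll was at 7.86, 7.77 and 7.90 in DMSO and at 7.85, 7.87 and 8.004 in NU7441, a difference of 0.07 (SE 0.07), which was 0.02 without NU7441 3 and 0.03 without DMSO 2.

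The choice against recombination is made by proteins that shield ends from trimming. Trp53bp1, the platform of this shield, lay between 9.16 and 9.25 on all 6 arrays and differed by -0.02 (SE 0.06). Its effector Rif1 differed by -0.04 (SE 0.09). The shieldin subunits Shld1 and Shld2 differed by 0.01 (SE 0.06) and 0.03 (SE 0.08), Shld1 having the smallest span of all members, 0.05. Mad2l2, the adaptor of shieldin also known as REV7, was at 8.12, 8.38 and 8.08 in DMSO and at 8.22, 8.15 and 7.95 in NU7441. DMSO 2 stood highest, and the difference of -0.09 (SE 0.11) became 0.0044 without it.

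Among the 3 roles the recombination genes had the widest spread over the arrays, with a median span of 0.41, against 0.32 for all genes. In 5 of them, Brca1, Exo1, Fancd2, Rad54l and Bard1, the span was at least 0.5. This was 38.5%, against 20.2% of all genes. Of the 13 measured members 10 were higher and 3 lower under NU7441, with a median log2 difference of 0.07. That median moved with the array left out. It was -0.02 without DMSO 2, 0.00 without NU7441 3, 0.12 without DMSO 1, 0.15 without DMSO 3 and 0.18 without NU7441 2. With array weights, which give arrays that stray from the fit less say, it was 0.01. Leaving out 1 array also breaks a same-numbered pair. Without both arrays numbered 2, a setting chosen after seeing the data, the median was 0.08. Within the same-numbered pairs 1 to 3 the median difference was 0.05, 0.04 and 0.12. In 9 of the 13 both arrays numbered 2 were lower than the other 4 arrays, which was so for 7.34% of all genes, and in 9 the highest value was that of NU7441 3, which was so for 20.9% of all genes. This arrangement was noticed in these data and is given as a description.

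The nuclease Exo1 and the Brca1 and Bard1 proteins act at the start, in trimming the ends. Brca1, a ubiquitin ligase subunit and tumour suppressor, was at 8.04, 7.31 and 8.28 in DMSO 1 to 3 and at 8.23, 7.70 and 8.44 in NU7441 1 to 3. The lowest value of each group was number 2 and the highest number 3, and the span of 1.13 log2 units was the widest of all members. Its mean was 7.88 ± 0.51 in DMSO and 8.12 ± 0.38 in NU7441 (SD, n = 3 each), a difference of 0.25 (SE 0.28) with an adjusted p of 0.893 in limma. Without DMSO 2 the difference was -0.04, without NU7441 3 it was 0.09, and with array weights it was 0.08. Without both arrays numbered 2 it was 0.18.

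Within same-numbered pairs Brca1 was higher with NU7441 by 0.20, 0.39 and 0.16. With the replicate number as a block, so that same-numbered arrays were treated as pairs, its SE fell from 0.28 to 0.07 and its interval ran from 0.05 to 0.44, with an adjusted p of 0.487 in limma. Exo1 was at 7.65, 7.09 and 7.82 in DMSO and at 7.70, 7.38 and 8.11 in NU7441, again lowest in number 2 and highest in number 3. It differed by 0.21 (SE 0.24), and by 0.05, 0.28 and 0.29 within the pairs, with an adjusted p of 0.893 without pairs and 0.524 with pairs in limma. Without DMSO 2 its difference was -0.0059, without NU7441 3 it was 0.02, and with array weights it was 0.065. Without both arrays numbered 2 it was 0.17. Brca1 and Exo1 were the 2 members of 34 at an unadjusted p under 0.05 with pairs, both higher with NU7441, where 9.37% of all genes were under it and 4.71% were under it and higher. With pairs 0 members and 0 genes passed an adjusted p of 0.05 in limma. Once a robust prior and an intensity trend were added to the pairs, 0 members passed, where 0.451% of all genes did.

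Bard1, the partner of Brca1, was at 8.66, 8.18 and 8.68 in DMSO and 8.61, 8.39 and 8.78 in NU7441, a difference of 0.09 (SE 0.16). Palb2 links Brca1 to Brca2 and had the smallest p of the role in the fit without pairs. It was at 6.39, 6.14 and 6.25 in DMSO and at 6.35, 6.37 and 6.53 in NU7441, where DMSO 1 lay above the lower 2 treated values. The difference was 0.15 (SE 0.09, 95% interval from -0.06 to 0.37, adjusted p of 0.797 in limma), 0.22 without DMSO 1 and 0.09 at the lowest when any 1 array was left out. Brca2, a tumour suppressor that acts once the ends are trimmed, was at 8.18, 8.10 and 8.27 in DMSO and 8.29, 8.07 and 8.55 in NU7441. The difference of 0.12 (SE 0.12) became -0.0013 without NU7441 3, the highest of the arrays.

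The later steps of the route held wide and narrow genes. Rad54l, a motor that drives strand exchange, was at 6.56, 6.19 and 6.63 in DMSO and 6.47, 6.17 and 6.95 in NU7441, a span of 0.78 and a difference of 0.07 (SE 0.21). Of a family of related proteins that act in strand exchange, Rad51c differed by 0.07 (SE 0.12), Rad51b by 0.05 (SE 0.08), Rad51d by -0.05 (SE 0.07) and Xrcc3 by 0.05 (SE 0.07). Rad51d and Xrcc3 spanned only 0.16 and 0.18 over the 6 arrays. Rad52, which anneals strands, differed by -0.02 (SE 0.10), and DMSO 2 was its highest array at 8.51, against 8.19 to 8.36 on the others.

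Fancd2 encodes a protein that is ubiquitylated in the Fanconi pathway for crosslinks. It was at 7.93, 7.43 and 8.12 in DMSO and 7.88, 7.64 and 8.26 in NU7441, with number 2 lowest and number 3 highest in both groups. The difference of 0.10 (SE 0.21) became -0.10 without DMSO 2 and 0.04 without both arrays numbered 2. Blm, a helicase that unwinds recombination intermediates, differed by -0.01 (SE 0.12) and followed the same order of arrays, with 7.79 and 7.73 in the arrays numbered 2 and 7.95 to 8.14 in the others.

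**Figure D2:**
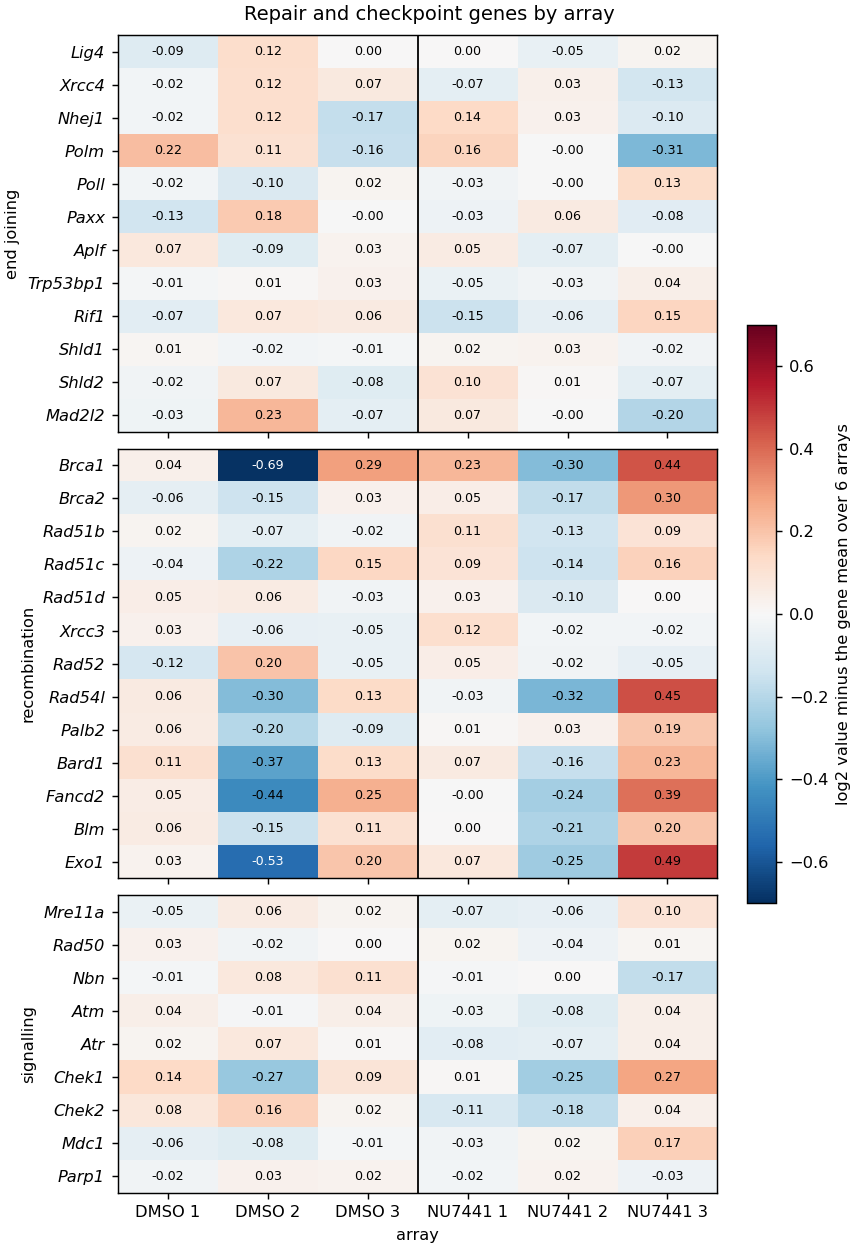
Each of the 34 measured members (rows, by role) on each of the 6 arrays (columns), as the log2 value minus the gene's mean over the arrays, in colour and in figures. Brca1, Rad54l, Fancd2 and Exo1 hold the strongest colours, with their lowest values in DMSO 2 and NU7441 2 and their highest in NU7441 3.

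The signalling genes spanned the least, a median of 0.16 over the arrays. Of the 9 members 2 were higher and 7 lower with NU7441, with a median log2 difference of -0.02, which turned to 0.01 with quantile normalization. It was -0.06 with array weights, -0.04 with median centring, -0.07 without NU7441 3, -0.05 without DMSO 2 and -0.04 without DMSO 1. The sensor of ends is the complex of Mre11a, Rad50 and Nbn. Mre11a, the nuclease, was at 8.97, 9.07 and 9.04 in DMSO and at 8.95, 8.96 and 9.11 in NU7441, a difference of -0.02 (SE 0.07) whose sign turned in several settings. Rad50, the tether, lay between 9.48 and 9.54 on all arrays and differed by -0.0046 (SE 0.06). Nbn, which recruits ATM, was at 9.25, 9.33 and 9.37 in DMSO and at 9.25, 9.26 and 9.09 in NU7441. Its difference was -0.12 (SE 0.08, adjusted p of 0.818 in limma), and -0.06 without NU7441 3, the lowest of the arrays.

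The kinases at the head of the response differed by -0.05 (SE 0.06) for Atm and -0.07 (SE 0.07) for Atr. A dimmer probe set of Atr, at 5.84 to 6.20, differed by 0.14 (SE 0.09), so its sign was the opposite of that of the brighter one, and neither passed. Mdc1, which binds the phosphorylated histone beside a break, was at 8.79, 8.78 and 8.84 in DMSO and at 8.83, 8.88 and 9.03 in NU7441. It was higher in all 3 pairs, by 0.04 to 0.18, with a difference of 0.11 (SE 0.07, adjusted p of 0.826 in limma), which was 0.05 without NU7441 3. Parp1, which marks breaks with poly(ADP-ribose), lay between 9.46 and 9.52 on every array and differed by -0.02 (SE 0.06).

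Of the checkpoint kinases below ATM and ATR neither passed the test. Chek2, the target of ATM, had the smallest p of all 34 members in the fit without pairs. It was at 8.64, 8.73 and 8.59 in DMSO and at 8.46, 8.39 and 8.60 in NU7441, and the groups met only through NU7441 3, which lay just above DMSO 3. The difference was -0.17 (SE 0.08, 95% interval from -0.36 to 0.02, adjusted p of 0.762 in limma), -0.23 without NU7441 3 and -0.09 without both arrays numbered 2. Chek1, the target of ATR, was at 7.99, 7.59 and 7.94 in DMSO and at 7.86, 7.61 and 8.13 in NU7441. It differed by 0.02 (SE 0.16), and its lowest values were again those of the arrays numbered 2.

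**Figure D3:**
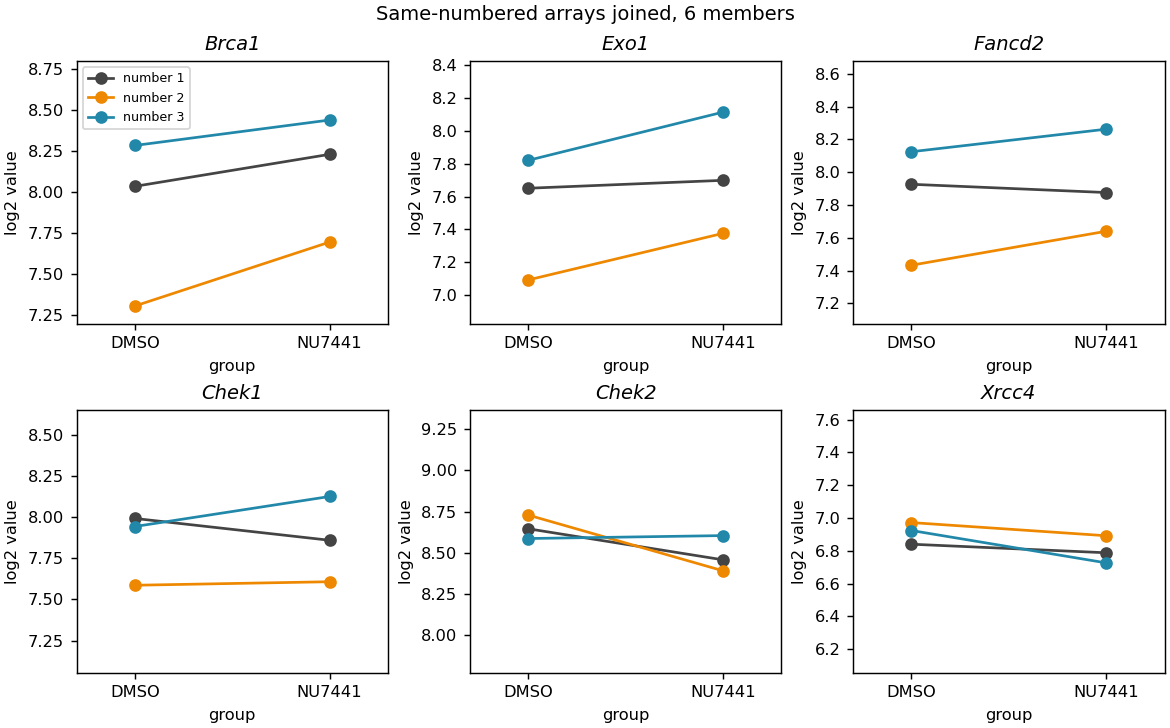
Log2 values (y axis) of Brca1, Exo1, Fancd2, Chek1, Chek2 and Xrcc4 in DMSO and NU7441 (x axis), with same-numbered arrays joined by a line and every panel spanning the same height. In Brca1, Exo1, Fancd2 and Chek1 the line of number 2 lies below the other lines, while in Xrcc4 the line of number 2 does not.

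Proliferation markers moved with the recombination genes from array to array. Of 30 such genes, among them Mki67, Top2a and the Mcm helicase subunits, 28 were measured and 0 passed the test in limma. In NU7441 27 lay above DMSO and 1 below it, at a median of 0.12 on the log2 scale, where 11371 of 22180 genes lay above. Of the 28, 9 were higher in all 3 same-numbered pairs, where 16% of all genes were. The median difference of the list was -0.06, 0.24 and 0.14 within pairs 1 to 3. The sum of the log2 levels of the 28 ran from 262.0 to 278.5 in DMSO and from 268.6 to 282.4 in NU7441. As the deviation of each gene from its own mean, the proliferation median was 0.15, -0.44 and 0.16 in DMSO 1 to 3 and 0.06, -0.21 and 0.30 in NU7441 1 to 3. The recombination median was 0.04, -0.20 and 0.11 in DMSO and 0.05, -0.16 and 0.20 in NU7441. Both lists were thus lowest in DMSO 2, next lowest in NU7441 2 and highest in NU7441 3. The end joining median did not take this order, being 0.09 in DMSO 2 and -0.05 in NU7441 3, and the signalling median stayed between -0.06 and 0.04.

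Both arrays numbered 2 lay below the other 4 in 26 of the 28 proliferation markers, in 9 of the 13 recombination genes, in 2 of the 9 signalling genes and in 1 of the 12 end joining genes. The recombination members were Brca1, Brca2, Rad51b, Rad51c, Rad54l, Bard1, Fancd2, Blm and Exo1, those of signalling Chek1 and Rad50, and that of end joining Aplf. With both arrays numbered 2 left out, the recombination median was 0.08 and 0 members had an unadjusted p under 0.05. The osteoblast markers took another order, with medians of -0.41, -0.14 and 0.11 in DMSO and -0.01, 0.10 and 0.66 in NU7441. The part of proliferation and of osteoblast markers in the differences between the groups was not tested.

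**Figure D4:**
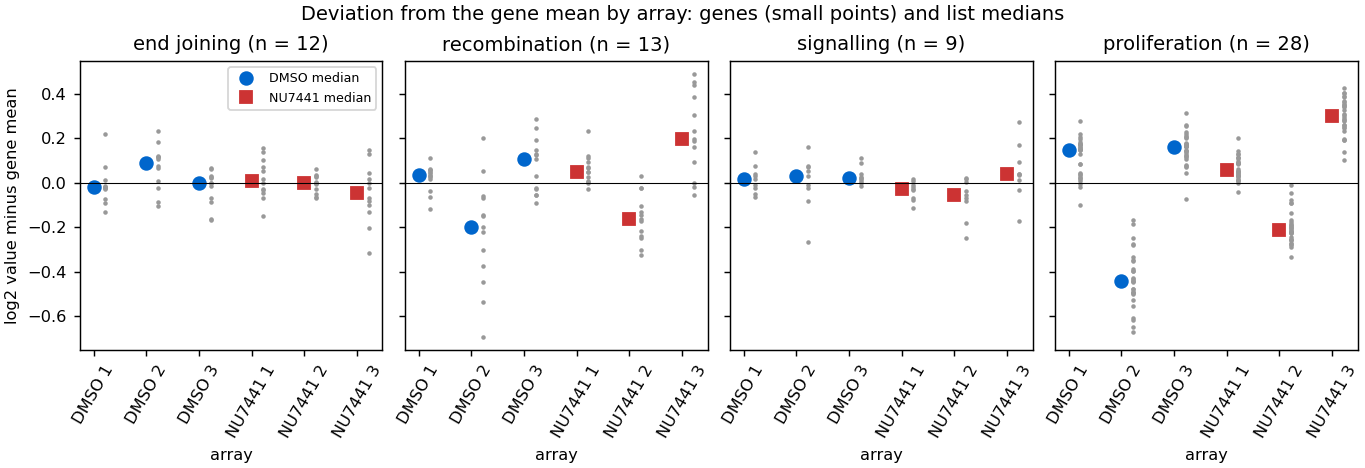
Deviation of each gene's log2 value from its mean over the 6 arrays (y axis) by array (x axis), for the 3 roles and the proliferation markers, with small points for genes and large symbols for the list's median. The medians of recombination and proliferation are lowest in DMSO 2, at -0.20 and -0.44, and highest in NU7441 3, at 0.20 and 0.30, while those of end joining and signalling stay within 0.09 of 0.

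The windows before the start sites are shown for those recombination and checkpoint genes with a span of at least 0.5 over the arrays that matched RefSeq's promoter table (build GRCm38.p6), since these genes varied the most and were all lowest in the arrays numbered 2. Motifs known from genes of the cell cycle were searched on both strands in the 250 bases before and 50 after the start: the E2F letters TTTCCCGC and TTTGGCGC, the CHR letters TTTGAA and TTTAAA, and the CCAAT box, CCAAT. Each window is given as the 250 bases before the start, 5′ to 3′ on the gene's strand, with matches in capitals. Brca1 lies at chr11:101551956-101552205, Rad54l at chr4:116123691-116123940, Bard1 at chr1:71102973-71103222 and Chek1 at chr9:36726659-36726908, all on the minus strand. Exo1 and Fancd2 did not match the table. The genes shown were picked after their values were seen.
Brca1: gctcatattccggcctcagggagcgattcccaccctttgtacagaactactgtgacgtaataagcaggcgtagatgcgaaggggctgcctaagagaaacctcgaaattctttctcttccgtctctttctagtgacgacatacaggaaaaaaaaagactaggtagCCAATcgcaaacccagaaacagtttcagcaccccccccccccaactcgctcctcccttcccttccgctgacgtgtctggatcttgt
Rad54l: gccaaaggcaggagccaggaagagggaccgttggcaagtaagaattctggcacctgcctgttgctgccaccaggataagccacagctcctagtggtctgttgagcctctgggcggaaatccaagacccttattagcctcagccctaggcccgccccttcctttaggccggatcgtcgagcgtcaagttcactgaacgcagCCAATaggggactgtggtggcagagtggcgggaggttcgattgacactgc
Bard1: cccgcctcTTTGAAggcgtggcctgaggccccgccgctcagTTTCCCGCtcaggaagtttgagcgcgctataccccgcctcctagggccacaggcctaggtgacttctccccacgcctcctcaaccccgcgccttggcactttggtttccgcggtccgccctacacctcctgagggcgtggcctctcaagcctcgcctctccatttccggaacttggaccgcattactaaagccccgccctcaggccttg
Chek1: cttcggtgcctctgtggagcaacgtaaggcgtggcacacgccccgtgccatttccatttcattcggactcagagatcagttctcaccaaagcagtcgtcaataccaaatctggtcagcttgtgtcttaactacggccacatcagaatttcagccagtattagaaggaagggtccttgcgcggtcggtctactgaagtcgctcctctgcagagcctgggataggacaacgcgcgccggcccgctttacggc

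In Brca1 the capitals mark a CCAAT box that begins 86 bases before the start, and in Rad54l one that begins 50 bases before it. Bard1 holds a CHR match 242 bases and an E2F match 209 bases before the start. The Chek1 window holds none of these letters. Over the 27 measured members that matched the table, with 34 windows, the E2F letters were in 5 windows, or 14.7%, against 1.56% of all 32851 windows of the same length. These were in Bard1, Brca2, Rad51c, Chek2 and Mdc1. By role, 3 of the 13 recombination windows, 2 of the 7 signalling windows and 0 of the 14 end joining windows held the E2F letters. The CHR letters were in 26.5% of the members' windows and 27.6% of all, and the CCAAT box in 44.1% and 37.4%. Of the 24 windows of the proliferation markers 16.7% held the E2F letters, 66.7% the CHR letters and 87.5% the CCAAT box. Base composition was not matched between these sets, and a match is no evidence of binding.

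Further genes of the same pathways were not called either. Of 15 related genes of end joining 12 were measured, of 39 of recombination 36 and of 27 of signalling 25, 73 in all. In limma 0 of the 73 passed an adjusted p of 0.05 and 0 had an unadjusted p under 0.05, where 6.79% of all genes did. With pairs 3 of the 73 had an unadjusted p under 0.05, Xrcc5, Rpa2 and Gen1, where 9.37% of all genes did. Prkdc, the kinase that NU7441 inhibits, differed by 0.04 (SE 0.06) and Xrcc6, which encodes Ku70, by 0.01 (SE 0.06). Xrcc5, which encodes Ku80, was at 10.37, 10.52 and 10.297 in DMSO and at 10.23, 10.33 and 10.09 in NU7441. It was lower in all 3 pairs, with a difference of -0.18 (SE 0.09 without pairs and 0.06 with pairs) and an adjusted p of 0.768 without pairs and 0.506 with pairs in limma. Parp3, a relative of Parp1 in end joining, differed by -0.07 (SE 0.09).

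Of the related recombination genes, 24 were higher and 12 lower, with a median of 0.04. Rpa2, of the complex that coats single strands, differed by 0.19 (SE 0.09) and Swsap1 by 0.15 (SE 0.08), with adjusted p of 0.764 and 0.768 in limma. Gen1, a nuclease that resolves recombination intermediates, had the widest difference of the list, 0.30 (SE 0.18). Both arrays numbered 2 were the lowest in 36.1% of the 36. The share was 32.0% for the related signalling genes, 16.7% for those of end joining and 7.34% for all genes. Of the related signalling genes 11 were higher and 14 lower, with a median of -0.02. Abraxas1, a scaffold of the Brca1-A complex, was at 9.02, 9.13 and 9.07 in DMSO and at 8.91, 8.87 and 9.01 in NU7441, so that its groups stood just apart, and differed by -0.14 (SE 0.07, adjusted p of 0.764 in limma). The groups stood apart in 2 of the 73 related genes, Abraxas1 and Xrcc1, where they did in 12.8% of all genes. Rad1, of the clamp that activates ATR, differed by -0.09 (SE 0.06).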

How the data were processed

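The data were 6 Affymetrix arrays, biotin-labelled, 3 with DMSO and 3 with NU7441, with groups and numbers from the labels. The authors deposited 1 log2 value per probe set and array. The log2 scale was read from the values, while for background correction, summarisation and normalization the method is not given in the sources used here. No normalization or filter was added, and 0 columns of other samples were present. Of 41345 probe sets, 23521 had 1 gene symbol in the platform annotation, and 22180 genes entered 1 fit (limma 3.58.1 under R 4.3.3; lmFit and eBayes, two-sided, group only), with Benjamini-Hochberg adjustment over all genes. The script was tested on simulated data.

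The members, lists and rules were chosen with earlier results of these data known. All members are named. Values by array are given for the 3 of each role with the smallest p without pairs and the 2 others with the widest span. They are also given for Bard1 and Rad54l, picked after their values were seen. Promoters of those named for their span were to be printed where they held E2F or CHR letters. As none of those 6 genes had a window with such letters, the windows shown follow another rule, which brought in Bard1 and Rad54l.

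Same-numbered arrays deviated together from their group means (correlations over genes 0.149, 0.169 and 0.339, and -0.246 to 0.094 for different numbers), so same-numbered arrays were treated as pairs in an alternative fit. Deviations from a group mean cancel over the arrays of the group, so the values for different numbers are not independent of those for same numbers. The pairing comes from the data, not the labels. Gene lists are described by counts and medians, with no list test. Figures were drawn with matplotlib 3.10.9.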

Additional observations from a re-analysis of the deposited data

How the results depend on the processing

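Under 16 alternatives 0 of the 34 members (31 in the upper 50% of genes by mean) were called by limma. The smallest adjusted p of the 15 members followed was 0.26, that of Brca1 with the replicate block, an intensity trend and a robust prior. That setting called 100 of all genes and had 2 members at an unadjusted p under 0.05, Brca1 and Exo1, as the replicate block alone did. The block changed no other call. All genes at an unadjusted p under 0.05 numbered 1506, 2483 in that setting and 933 in the upper 50%. Leaving out 1 array gave 0 to 1 such members, Palb2 without DMSO 1 and Chek2 without NU7441 3, and left 0 genes called. The signalling median ran from -0.0712 to -0.013 over these, and was -0.0648 with array weights and 0.0084 with quantile normalization. The recombination median was 0.0095 with array weights. Of the differences of the 15 members under alternatives, 19 changed sign and 220 did not. The 220 overstate how stable the signs were, since some alternatives leave the difference unchanged by construction. These were the replicate block, the intensity trend with robust prior, both together, and the filters by mean level. Averaging over probe sets was another, as each of the 15 members had only 1. With array weights Chek1 was -0.0648, Fancd2 -0.0298 and Paxx 0.0008. Mre11a was 0.0107 with quantile normalization, and without both arrays numbered 2, a setting chosen after seeing the data, Mre11a was 0.0275 and Paxx 0.009. Leaving out 1 array gave ranges of -0.0379 to 0.4597 for Brca1, -0.0013 to 0.2368 for Brca2, -0.1073 to 0.1525 for Chek1, -0.0059 to 0.3855 for Exo1, -0.0995 to 0.2463 for Fancd2, -0.1477 to 0.0044 for Mad2l2, -0.0712 to 0.0099 for Mre11a, -0.1077 to 0.0493 for Paxx and -0.2151 to 0.0238 for Polm. The causes were not tested. The number of arrays limits the precision, and signal over background was not analysed here.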
